A study of Mus musculus with 18 samples.

Results

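Young LT-HSCs were compared with young bulk-HSCs, the mixed stem cell gate from which LT-HSCs were taken. The comparison rests on 6 of the 18 RNA libraries of the series, 3 of young LT-HSCs and 3 of young bulk-HSCs, chosen by the cell type that the labels give each library. The mice were Hoxb5-tri-mCherry reporter mice on a C57BL/6J background, in which mCherry is made from the Hoxb5 locus, and all groups were sorted from bone marrow. The age of the young group was 2 to 3 months, and that of the aged group, used for a side comparison, 23 to 25 months. Bulk-HSCs were all cells of the immunophenotypic HSC gate, LT-HSCs were the reporter-positive cells of that gate and ST-HSCs the reporter-negative ones. A difference between LT-HSCs and bulk-HSCs therefore compares a fraction with a mixture that also holds it. The labels do not say that the 3 libraries of a group came from separate animals. The edgeR p-values rest on the spread between libraries within groups, estimated over all 18 libraries, and that spread may be technical.

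HSCs replace all blood lineages throughout life. LT-HSCs do so after serial transplantation, whereas ST-HSCs sustain blood formation for a limited time. Most HSCs are out of the cell cycle, and entry into the cycle brings up genes of DNA replication through E2F factors and genes of mitosis later on. HSCs also share part of the megakaryocyte program, which includes Vwf and Itgb3, and Hoxb5 is a homeobox factor whose expression was used here to divide the gate.

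Total counts were 16495048 to 19778541 in the young LT-HSC libraries and 17507155 to 21508230 in the young bulk-HSC libraries. Values are CPM, counts scaled to the library size after TMM normalization, and 3 counts, taken as the detection floor, were worth 0.136 to 0.176 CPM. The reads carried no molecular identifiers, so the floor covers counting error only. The young libraries varied more than the aged ones. The biological coefficient of variation was 0.783 over the 6 libraries compared and 0.366 over the 6 aged LT-HSC and bulk-HSC libraries. Of the 12808 genes tested, 225 to 1590 had no count in a young LT-HSC library and 850 to 1181 in a young bulk-HSC library, against 127 to 284 in the aged LT-HSC and bulk-HSC libraries. Young LT-HSC replicate 2, with the 225, had a mean Spearman correlation of 0.928 with young bulk-HSC libraries and 0.925 with its own group. Each of the other young LT-HSC and bulk-HSC libraries correlated more with its own group. The cause was not tested.

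Hoxb5, on chromosome 11, checks the sort. Its level was 40.3, 8.77 and 8.20 CPM in the 3 young LT-HSC libraries and 4.59, 1.72 and 5.61 CPM in the 3 young bulk-HSC libraries. All 3 LT-HSC libraries lay above all 3 bulk-HSC libraries, and replicate 1 of LT-HSCs was far above the others. The log2 difference was 2.26 with a standard error of 1.09 (edgeR adjusted p = 0.439), and an exact permutation test gave p = 0.1, the smallest that 3 against 3 libraries allow (two-sided). Since the sort used this locus, its direction is a check of the labels and not a finding. Kit, the stem cell factor receptor by which marrow was enriched before the sort, lay at 1286, 1138 and 1243 CPM in LT-HSCs and at 1414, 1351 and 1370 CPM in bulk-HSCs (edgeR adjusted p = 0.394). Both groups thus held high Kit, and Cd48, a marker of more committed progenitors, had a count only in bulk-HSC replicate 2 (1.27 CPM). Of the 14 sorting markers measured, only Cd3e, Cd8a and Il7r had no count in any of the 6 libraries. Flt3 had counts in all 6, at 22.3, 9.16 and 15.9 CPM in LT-HSCs and 41.7, 26.4 and 25.7 CPM in bulk-HSCs. Fcgr3 was at 0 in LT-HSCs and at 8.17, 2.77 and 0 CPM in bulk-HSCs (edgeR adjusted p = 0.401).

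Genes that differed between young LT-HSCs and young bulk-HSCs were few. With edgeR's quasi-likelihood test and Benjamini-Hochberg adjustment, 35 of 12808 genes passed an adjusted p of 0.05, which is 0.273% of those tested. Of these, 28 were higher in LT-HSCs (0.219%) and 7 were lower (0.0547%). Without adjustment 1477 genes (11.5%) had a p under 0.05, and the median log2 difference over all tested genes was 0.000126. The calls rest on a spread estimated from all 18 libraries. A fit on the 6 libraries alone called 0 genes, with limma-voom and sample quality weights also calling 0, a fit on the 9 young libraries called Car1 alone, and DESeq2 called 438. Among the 35 genes, 34 had LT-HSC libraries wholly above or wholly below all bulk-HSC libraries. LT-HSCs lay wholly above bulk-HSCs in 6.14% of all tested genes and wholly below in 6.02%.

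**Figure D1:**
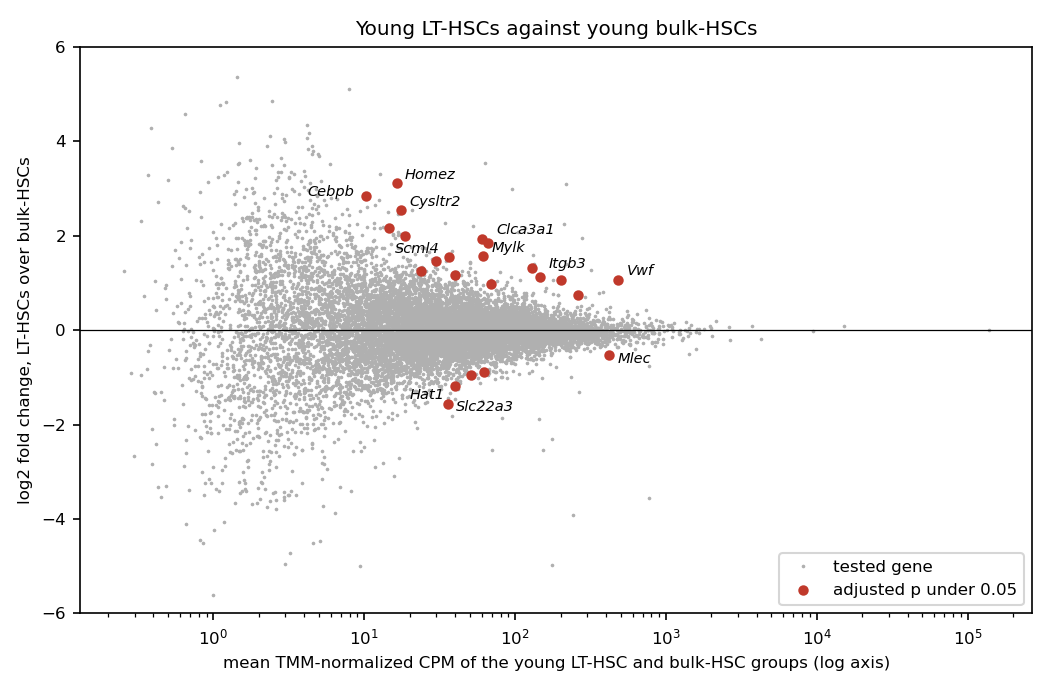
Each point is a tested gene, with its mean CPM over both groups on the horizontal log axis and the log2 difference (young LT-HSCs minus young bulk-HSCs) on the vertical axis. Of the 35 genes past the adjusted threshold, the 23 with a count in each of the 6 libraries are coloured. The plot leaves out 322 genes at 0 in every library of a group and 5 genes beyond a log2 difference of 6. The cloud is centred on 0 and widens toward low expression.

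Receptors and other surface or secreted proteins were among the called genes. Cysltr2, a G protein-coupled receptor for cysteinyl leukotrienes, lay at 26.7, 40.4 and 22.96 CPM in LT-HSCs and at 4.31, 7.62 and 3.46 CPM in bulk-HSCs. Its mean in LT-HSCs was 5.85 times that in bulk-HSCs, at a log2 fold change of 2.55 ± 0.35 (SE; edgeR adjusted p = 0.00331), and the call held in each fit that left out a library. Ghr, the growth hormone receptor, lay at 24.2, 36.2 and 29.6 CPM against 8.67, 8.49 and 5.28 CPM. The lowest LT-HSC library was again well above the highest bulk-HSC library, and the log2 fold change was 2.00 ± 0.36 (edgeR adjusted p = 0.0198, and 0.0554 without bulk-HSC replicate 3). Itgb3, the integrin beta chain of the platelet fibrinogen receptor, lay at 207, 145 and 252 CPM against a narrow band of 88.7, 97.0 and 90.0 CPM in bulk-HSCs. It rose by a log2 fold change of 1.13 ± 0.17 (edgeR adjusted p = 0.00652). Vwf, the clotting protein that platelets and endothelium release, was the most abundant called gene at 560, 643 and 754 CPM against 211, 335 and 384 CPM, a log2 fold change of 1.07 ± 0.20 (edgeR adjusted p = 0.0302). Leaving out LT-HSC replicate 3 or bulk-HSC replicate 1 ended the call, at edgeR adjusted p = 0.0786 and 0.0675. Mean levels in young ST-HSCs were 13.4 CPM for Cysltr2, 9.998 for Ghr, 94.1 for Itgb3 and 85.3 for Vwf. The bulk-HSC mean of Vwf lay between those of LT-HSCs and ST-HSCs. For Cysltr2, Ghr and Itgb3 it lay below both, although the gate holds both fractions.

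Clca3a1, of the calcium-activated chloride channel regulators, lay at 105, 60.5 and 148 CPM in LT-HSCs and at 21.4, 44.3 and 20.5 CPM in bulk-HSCs. The groups did not overlap, although bulk-HSC replicate 2 reached 44.3 CPM, and the log2 fold change was 1.86 ± 0.32 (edgeR adjusted p = 0.0152, and 0.0571 without bulk-HSC replicate 1). Clca3a1 has close paralogs, and how reads were divided among them is not stated. Enpp5, of the ectonucleotide pyrophosphatase family, was at 139, 82.6 and 64.8 CPM against 14.6, 42.4 and 17.7 CPM (log2 fold change 1.94 ± 0.32, edgeR adjusted p = 0.0130). Tmem2, a cell surface hyaluronidase, lay just inside the threshold at an edgeR adjusted p of 0.0496, and lost its call without LT-HSC replicate 1 (0.118) or bulk-HSC replicate 1 (0.0892) or 2 (0.111). Young ST-HSCs had means of 16.9 CPM for Clca3a1, 52.9 for Enpp5 and 22.1 for Tmem2. Bulk-HSC means of Enpp5 (24.9) and Tmem2 (14.1) lay below those of both LT-HSCs and ST-HSCs, and that of Clca3a1 (28.7) lay between them.

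Transcription factors and a chromatin protein were also among the called genes. Ppard, a nuclear receptor that drives fatty acid oxidation genes, lay at 24.2, 27.5 and 19.4 CPM in LT-HSCs and at 3.36, 5.67 and 6.87 CPM in bulk-HSCs, with no overlap. The 4.47-fold higher mean corresponded to a log2 fold change of 2.16 ± 0.36 (edgeR adjusted p = 0.0132). Cebpb, a factor of emergency granulopoiesis, lay at 19.3, 13.7 and 20.9 CPM against 2.35, 4.13 and 0.981 CPM, with a log2 fold change of 2.85 ± 0.50 (edgeR adjusted p = 0.0164). The Cebpb call was lost without bulk-HSC replicate 1 (0.0545). Scml4, a Polycomb-like protein, was at 68.7, 50.05 and 43.6 CPM against 13.3, 21.1 and 21.4 CPM (log2 fold change 1.54 ± 0.23, edgeR adjusted p = 0.00713). Homez, a homeobox and leucine zipper protein, had the highest fitted fold among the genes counted in every library, yet LT-HSC replicate 2 was at 4.95 CPM, close to the bulk-HSC values of 2.69, 3.72 and 3.74 CPM, while replicates 1 and 3 were at 30.1 and 53.1 CPM. Its call held only when LT-HSC replicate 2 was the library left out, and the other 5 fits gave edgeR adjusted p values of 0.0633 to 0.107. In young ST-HSCs the means were 17.5 CPM for Ppard, 7.45 for Cebpb, 37.7 for Scml4 and 27.8 for Homez. For each of these genes bulk-HSCs lay below the means of both LT-HSCs and ST-HSCs, the fractions that the gate holds. The cause was not tested.

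Further called genes encode enzymes and proteins of the cytoskeleton and membranes. Mylk, the kinase that phosphorylates the myosin regulatory light chain, lay at 104, 89.2 and 82.1 CPM in LT-HSCs and at 31.3, 35.6 and 26.1 CPM in bulk-HSCs. It rose by a log2 fold change of 1.56 ± 0.20 (edgeR adjusted p = 0.00248), with 91.6 ± 10.9 CPM against 31.0 ± 4.76 CPM (SD, n = 3 each), and stayed past the threshold in each fit that left out a library. Sult1a1, a sulfotransferase of phenols, lay at 196, 118 and 242 CPM against 65.1, 103 and 54.8 CPM. The gap between the groups was small there, and the call (log2 fold change 1.32 ± 0.26, edgeR adjusted p = 0.0413) was lost without LT-HSC replicate 1 or 3 or bulk-HSC replicate 1 or 3, with adjusted p values of 0.0710 to 0.106. Gda, the guanine deaminase, was at 213, 236 and 373 CPM against 135, 138 and 119 CPM. Diap2, a formin, Bace1, the beta-secretase, and Myof, a membrane repair protein, had log2 fold changes of 1.18, 0.97 and 0.75. Gda, Diap2, Bace1 and Myof had edgeR adjusted p values of 0.0413 to 0.0488, and each lost its call without particular libraries, at edgeR adjusted p values of 0.0593 to 0.124. Those libraries were LT-HSC replicate 3 and each bulk-HSC replicate for Gda, all but LT-HSC replicate 3 for Diap2, LT-HSC replicate 1 and bulk-HSC replicates 1 and 2 for Bace1, and these with LT-HSC replicate 3 for Myof. Bace1 and Myof were named after their values were seen. Means in young ST-HSCs were 39.7 CPM for Mylk, 70.1 for Sult1a1, 129 for Gda, 42.5 for Diap2, 46.5 for Bace1 and 190 for Myof. Bulk-HSC means of Mylk (31.0) and Diap2 (24.7) lay below those of both fractions. Those of the other genes lay between the fractions, close to ST-HSCs.

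**Figure D2:**
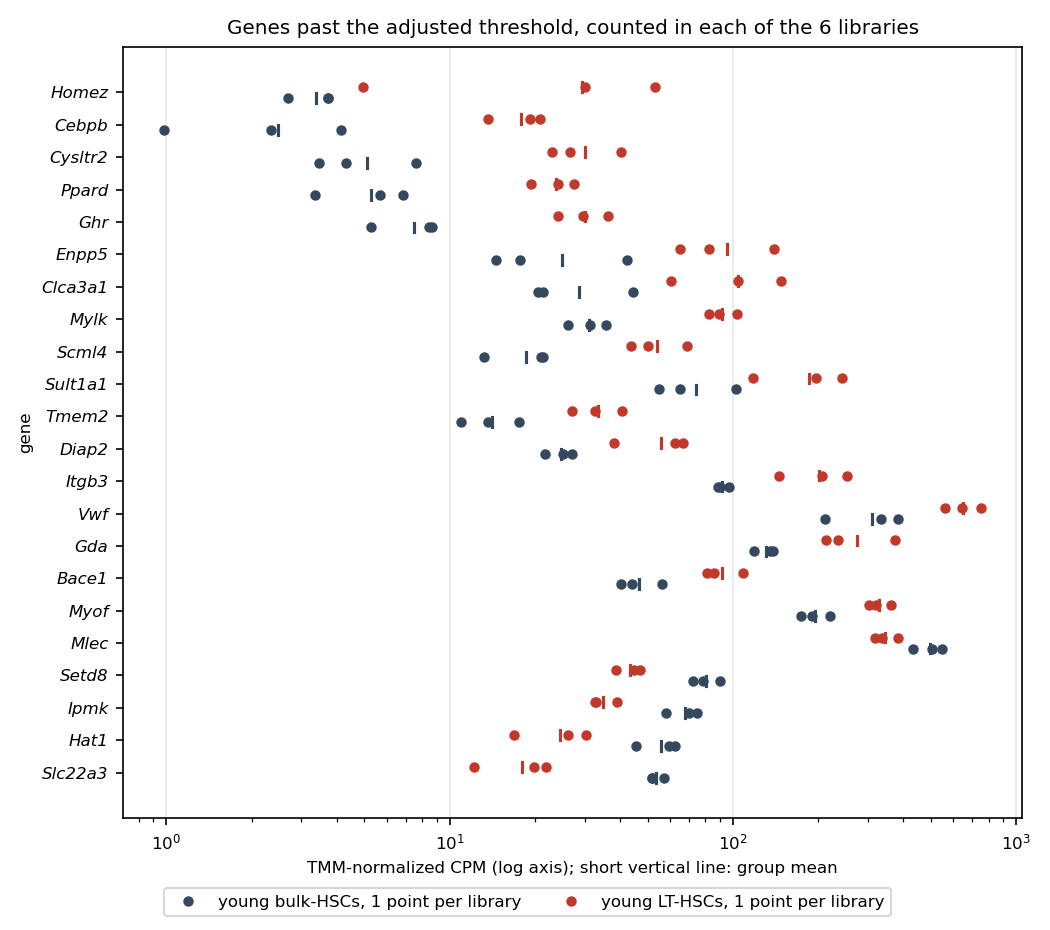
Each point is a library, with TMM-normalized CPM on a log axis, for 22 of the 23 called genes that had a count in each of the 6 libraries. Short lines mark group means, red stands for young LT-HSCs and dark blue for young bulk-HSCs. The 17 genes from Homez to Myof were higher in LT-HSCs and the 5 from Mlec to Slc22a3 were lower, and in none of the 22 do the libraries overlap.

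Of the 28 higher genes, 10 had no count in any young bulk-HSC library, so their means were set against the floor of 3 counts per library. Such a fold covers counting error only and is no minimum of the difference in expression. They were Ttll1, a subunit of the tubulin polyglutamylase, Tc2n, 2210408F21Rik, Il1rapl2, of the interleukin receptor family, Gpx7, a peroxidase of the endoplasmic reticulum, Brdt, a bromodomain protein of the testis, 1700020L24Rik, Hpse, the heparanase, Slc6a17, a transporter of amino acids, and Ccl9, a chemokine. Their means in young LT-HSCs were 2.86 to 11.9 CPM, which was 19.3-fold to 80.3-fold the floor in bulk-HSCs. Leaving out LT-HSC replicate 3 lowered this fold by over 1.5 times for 3 of them. These were Ttll1 (to 50.2-fold), Gpx7 (46.4-fold to 21.9-fold) and Brdt (30.3-fold to 19.9-fold). All of the 10 genes but Ttll1 and Tc2n were named after their values were seen. Slc6a17 and Ccl9 lost their calls without LT-HSC replicate 1 or any bulk-HSC replicate, at edgeR adjusted p values of 0.0547 to 0.0796.

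Ttll1, on chromosome 15, lay at 5.72, 9.16 and 20.8 CPM in LT-HSCs and at 0 in all 3 bulk-HSC libraries (edgeR adjusted p = 0.00248). The LT-HSC mean of Ttll1 was 80.3-fold the floor, and 50.2-fold without LT-HSC replicate 3. Its level in young ST-HSCs was 10.9, 6.98 and 11.1 CPM, and in aged bulk-HSCs 3.83, 13.4 and 5.52 CPM. Tc2n, on chromosome 12, had a mean of 7.12 ± 4.19 CPM (SD, n = 3) in LT-HSCs, and 3.26, 0.952 and 8.12 CPM in ST-HSCs. The bulk-HSC gate holds both LT-HSCs and ST-HSCs, and each of the 10 genes had a count in all 3 young ST-HSC libraries, at means of 3.62 to 9.67 CPM. Each also had a count in all 3 aged bulk-HSC libraries, at means of 2.34 to 14.2 CPM. Over all tested genes, 254 were at 0 in all 3 young bulk-HSC libraries, 90 in all 3 young LT-HSC libraries and 24 in all 3 aged bulk-HSC libraries. Of the 9653 genes whose median count was 200 or more, 29 to 67 had no count in a young bulk-HSC library and 2 to 5 in an aged one. In young LT-HSC replicates 1, 2 and 3 there were 46, 1 and 163 such genes. The part of these missing counts in the 10 calls was not tested. When genes were tested only if each of the 6 libraries had a count, a filter chosen after seeing the data, 19 genes were called and all 19 were among the 35.

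The 7 lower genes included Car1, which had no count in any young LT-HSC library. Car1, the carbonic anhydrase of red cell precursors, lay at 30.2, 129 and 37.8 CPM in bulk-HSCs (edgeR adjusted p = 0.0488). The bulk-HSC mean of Car1 was 406-fold the floor in LT-HSCs, and 209.9-fold without bulk-HSC replicate 2. The bulk-HSC values spread widely, and the call held only when bulk-HSC replicate 3 was the library left out, with edgeR adjusted p values of 0.0551 to 0.105 in the other 5 fits. Young ST-HSCs held 14.5, 29.2 and 18.96 CPM, and aged bulk-HSCs 0.441, 0 and 0 CPM. Slc22a3, a transporter of organic cations, lay at 19.8, 22.0 and 12.2 CPM in LT-HSCs and at 51.6, 57.0 and 51.8 CPM in bulk-HSCs. It fell by 1.57 on the log2 scale (SE 0.27, edgeR adjusted p = 0.0157), and this call held whichever library was left out. Young ST-HSCs were at 82.5, 65.5 and 90.3 CPM for Slc22a3, above both groups.

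Hat1, which acetylates newly made histones, lay at 30.3, 26.3 and 16.9 CPM in LT-HSCs and at 59.7, 62.5 and 45.5 CPM in bulk-HSCs (log2 fold change -1.19 ± 0.24, edgeR adjusted p = 0.0488). Setd8, a histone methyltransferase needed for passage through the cell cycle, was at 38.6, 44.9 and 47.0 CPM against 72.5, 90.1 and 78.8 CPM (log2 fold change -0.89 ± 0.18, edgeR adjusted p = 0.0429). The groups did not overlap for either histone enzyme. Ipmk, an inositol phosphate kinase, lay at 33.0, 38.9 and 32.7 CPM against 70.1, 74.97 and 57.9 CPM. Mlec, a lectin of the endoplasmic reticulum that binds newly made glycoproteins, had a small and even difference, at 318, 336 and 384 CPM against 434, 506 and 550 CPM (log2 fold change -0.52 ± 0.10, edgeR adjusted p = 0.0413). Young ST-HSC means were 35.1 CPM for Hat1, 53.9 for Setd8, 51.7 for Ipmk and 511 for Mlec. For Hat1 (55.9), Setd8 (80.4) and Ipmk (67.7) the bulk-HSC mean lay above those of both LT-HSCs and ST-HSCs. For Mlec (497) it lay between them. Each of Hat1, Setd8, Ipmk and Mlec lost its call without particular libraries, at edgeR adjusted p values of 0.0520 to 0.106. For Hat1 these were LT-HSC replicate 3 and bulk-HSC replicates 1 and 2, for Setd8 LT-HSC replicate 1 and bulk-HSC replicates 2 and 3, for Ipmk LT-HSC replicates 1 and 3 and bulk-HSC replicates 1 and 2, and for Mlec LT-HSC replicates 1 and 2 and bulk-HSC replicates 2 and 3. Spns3, of the sphingolipid transporter family and named after its values were seen, was at 0 in LT-HSCs and at 21.8, 0 and 12.9 CPM in bulk-HSCs, the 1 called gene whose groups overlapped. The bulk-HSC mean of Spns3 was 71.3-fold the floor in LT-HSCs, and 39.8-fold without bulk-HSC replicate 1. The Spns3 call was lost when LT-HSC replicate 1, 2 or 3 or bulk-HSC replicate 1 was left out, at edgeR adjusted p values of 0.0541 to 0.0851.

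Stem cell surface and marker genes were for the most part higher in LT-HSCs. Of 33 tested, 27 were higher in LT-HSCs, with a median log2 difference of 0.23, and Clca3a1, Sult1a1, Itgb3 and Vwf passed the adjusted test, against 0.219% of all tested genes. Over all genes 50.02% were higher in LT-HSCs. Slamf1, the CD150 receptor used to define HSCs, lay at 52.2, 70.5 and 67.5 CPM against 34.5, 30.5 and 30.6 CPM. Its libraries did not overlap, with a log2 difference of 0.99 ± 0.22 that missed the threshold (edgeR adjusted p = 0.0763). Fgd5, a guanine nucleotide exchange factor that marks HSCs, was at 216, 216 and 235 CPM against 189, 159 and 153 CPM (log2 difference 0.41, edgeR adjusted p = 0.206). Procr, the protein C receptor, differed by 0.30 on the log2 scale (edgeR adjusted p = 0.449), and its libraries overlapped. Tek, the angiopoietin receptor of HSCs and endothelium, lay at 118, 88.1 and 111 CPM against 88.2, 54.9 and 70.9 CPM.

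HSC aging genes, a hand-written list of genes known to be higher in aged HSCs, held 7 of the called genes, Clca3a1, Enpp5, Gda, Itgb3, Sult1a1, Tc2n and Vwf, and 34 of its 37 tested members were higher in young LT-HSCs, beside 0.219% and 50.02% of all tested genes. The calls of Clca3a1, Itgb3, Sult1a1 and Vwf are those of the stem cell surface and marker list as well, so the lists give no separate evidence. Clca3a1, Gda, Sult1a1 and Vwf were among the genes whose calls were lost without single libraries, named above. The summed level was 3388, 3301 and 4050 CPM in young LT-HSCs and 1863, 2190 and 2092 CPM in young bulk-HSCs, with no overlap. Young ST-HSCs lay at 1814, 1807 and 1893 CPM. In aged mice the sums were 6199, 5974 and 6841 CPM in LT-HSCs and 5479, 5893 and 5384 CPM in bulk-HSCs, so both aged groups lay above the young LT-HSCs. The list was chosen for genes higher in aged HSCs, with earlier results of these data known. That order is therefore no finding, and the share of its members called is a description only. Selp, the P-selectin of platelets and endothelium, was at 41.7, 89.9 and 127 CPM in young LT-HSCs and at 4.92, 36.0 and 14.8 CPM in young bulk-HSCs. It lay just outside the threshold, with a log2 difference of 2.21 ± 0.46 (edgeR adjusted p = 0.0532), next to Runx1t1, a corepressor, at 2.54 (0.0532), and Dhrs3, a retinaldehyde reductase, at 2.09 (0.0549). Runx1t1 was named for its place beside the threshold.

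Stem cell transcription factors differed little as a group. Of 35 tested, 23 were higher in LT-HSCs, with a median log2 difference of 0.07, and 0 passed the adjusted test. At an unadjusted p under 0.05, 5 were higher and 1 lower, beside 6.6% and 4.93% of all tested genes. Gfi1, a repressor that restrains HSC proliferation, lay at 19.4, 38.9 and 26.1 CPM against 4.36, 11.2 and 4.86 CPM, with a log2 difference of 2.05 ± 0.47 (edgeR adjusted p = 0.0763). Mecom, a factor needed for HSC maintenance, was at 341, 343 and 356 CPM against 281, 272 and 210 CPM (log2 difference 0.45, edgeR adjusted p = 0.115). Both had LT-HSC libraries wholly above the bulk-HSC libraries without passing the threshold. Hlf, another factor of HSC identity, was at 1190, 1098 and 1025 CPM against 1238, 934 and 1094 CPM, with overlapping groups (log2 difference 0.02 ± 0.17).

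Hox genes, the family of the reporter gene, were mostly higher. Of the 17 tested, 14 were higher in LT-HSCs, with a median log2 difference of 0.66. LT-HSC libraries lay wholly above those of bulk-HSCs for 7 (6.14% of all tested genes). The 14, the 7 and the median count Hoxb5 itself. At an unadjusted p under 0.05, 5 were higher (6.6%), and 0 passed the adjusted test. Hoxb9 and Hoxc6, among the 7, were at 0 in all 3 young bulk-HSC libraries. Hoxb2, Hoxb4 and Hoxb9 lie on chromosome 11, as Hoxb5 does. Hoxb4, which can expand HSCs when overexpressed, lay at 54.1, 38.3 and 44.2 CPM against 29.9, 26.8 and 17.8 CPM (log2 difference 0.88 ± 0.26, edgeR adjusted p = 0.175). Hoxb2 lay at 24.999, 21.7 and 15.9 CPM against 5.32, 3.31 and 5.23 CPM, and Hoxa10 at 45.2, 31.2 and 58.8 CPM against 24.3, 32.9 and 28.5 CPM. Hoxb2 showed no overlap and Hoxa10 did, and neither passed the adjusted test (0.399 and 0.397 with edgeR).

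Genes of DNA replication lay lower in LT-HSCs. Of 50 tested, 39 were lower, with a median log2 difference of -0.38, and 13 had LT-HSC libraries wholly below bulk-HSC libraries, beside 6.02% of all tested genes. At an unadjusted p under 0.05, 11 were lower (4.93% of all tested genes) and 0 higher, and 0 passed the adjusted test. Mcm5, a subunit of the replicative helicase, lay at 51.3, 49.997 and 73.3 CPM in LT-HSCs and at 111, 140 and 101 CPM in bulk-HSCs, a log2 difference of -1.01 ± 0.23 (edgeR adjusted p = 0.0780). The highest LT-HSC library was below the lowest bulk-HSC library. Cdt1, which loads that helicase, was at 11.5, 25.7 and 20.5 CPM against 36.3, 38.1 and 82.8 CPM (log2 difference -1.45, edgeR adjusted p = 0.178). Uhrf1, which keeps DNA methylation through replication, was at 31.5, 53.0 and 61.7 CPM against 69.8, 77.8 and 150 CPM (-1.03, 0.264). Rrm1, of ribonucleotide reductase, was at 97.8, 97.8 and 91.1 CPM against 130, 154 and 150 CPM, a gap small in size but wider than the spread within either group (-0.60, 0.250).

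Mitotic genes showed the same direction with wider spread. Of 65 tested, 54 were lower in LT-HSCs, with a median log2 difference of -0.56, 12 lay wholly below bulk-HSCs (6.02% of all tested genes), 9 were lower at an unadjusted p under 0.05 (4.93%), and 0 passed the adjusted test. Casc5, a kinetochore scaffold, lay at 3.43, 10.4 and 12.95 CPM against 28.0, 44.3 and 31.7 CPM (log2 difference -1.96 ± 0.53, edgeR adjusted p = 0.136). Ncapg2, of the condensin complex, lay at 28.9, 30.4 and 37.4 CPM against 51.0, 47.9 and 47.1 CPM, again without overlap (-0.60, 0.307). Mki67, the marker of cycling cells, was at 153, 122 and 282 CPM against 184, 275 and 371 CPM. Replicate 3 of LT-HSCs lay above replicates 1 and 2 of bulk-HSCs for Mki67, and the difference did not pass (-0.58 ± 0.37, edgeR adjusted p = 0.637). The summed level of replication genes was 2110, 2420 and 2818 CPM in LT-HSCs and 2898, 3351 and 3451 CPM in bulk-HSCs, and that of mitotic genes 2025, 1797 and 2541 CPM against 2357, 2826 and 3567 CPM. The replication sums did not overlap and the mitotic sums did. In a sum over cells, fewer cycling cells and less RNA of these genes in each cell cannot be told apart.

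The promoters of Mcm5, Uhrf1 and Ncapg2 are shown because they hold letters that E2F factors or the cell cycle homology region (CHR), a mitotic promoter element, are known for. They are the 250 bases before the transcription start on the plus strand of GRCm38.p6, taken from RefSeq and read 5′ to 3′, at chr8:75109259-75109508, chr17:56304063-56304312 and chr12:116405186-116405435. Capitals mark the matches.
Mcm5: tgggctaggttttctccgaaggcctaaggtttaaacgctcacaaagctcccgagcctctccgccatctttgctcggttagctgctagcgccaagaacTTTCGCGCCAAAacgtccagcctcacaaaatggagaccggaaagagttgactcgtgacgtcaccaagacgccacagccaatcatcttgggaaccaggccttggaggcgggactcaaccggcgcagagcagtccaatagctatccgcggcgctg
Uhrf1: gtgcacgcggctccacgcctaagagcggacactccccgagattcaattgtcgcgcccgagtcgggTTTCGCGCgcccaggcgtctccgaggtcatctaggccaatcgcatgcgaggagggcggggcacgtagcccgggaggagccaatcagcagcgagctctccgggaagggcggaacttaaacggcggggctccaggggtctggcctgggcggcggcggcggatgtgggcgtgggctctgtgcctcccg
Ncapg2: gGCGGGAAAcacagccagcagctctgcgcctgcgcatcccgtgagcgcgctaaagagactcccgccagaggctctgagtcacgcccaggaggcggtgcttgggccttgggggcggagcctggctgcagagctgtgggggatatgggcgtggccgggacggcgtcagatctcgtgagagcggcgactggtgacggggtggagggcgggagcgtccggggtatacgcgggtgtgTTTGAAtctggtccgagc

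The E2F letters searched on both strands were TTTCCCGC, TTTGGCGC, TTTCGCGC and TTTGCCGC, and the CHR letters TTTGAA. In Mcm5 the first capitals begin 153 bases before the start, where TTTCGCGC overlaps TTTGGCGC read on the other strand. The match in Uhrf1 begins 185 bases before the start used here, and RefSeq lists 2 starts for this gene. In Ncapg2 TTTCCCGC lies on the other strand 249 bases before the start and TTTGAA 18 bases before it. E2F letters were present in 27.5% of the 40 replication genes with a promoter sequence, in 9.26% of the 54 mitotic genes, and in 2.16% of all 27025 promoters and 3.89% of the tested ones. The CHR letters were present in 37.0% of mitotic genes and in 12.7% of tested promoters. All 11 replication genes with E2F letters were lower in LT-HSCs (median log2 difference -0.41), as were 20 of the 29 without them (-0.32). Mitotic genes with and without CHR letters had medians of -0.54 and -0.57. A match is a description of these windows only.

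Cyclins, CDKs and their inhibitors were divided. Of 31 tested, 15 were higher in LT-HSCs and 16 lower, with a median log2 difference of -0.08. At an unadjusted p under 0.05, 3 were higher and 3 lower, beside 6.6% and 4.93% of all tested genes, and 0 passed the adjusted test. Myc, the growth factor-driven transcription factor, lay at 109, 115 and 138 CPM against 193, 172 and 188 CPM (log2 difference -0.61, edgeR adjusted p = 0.269), with no overlap. Tfdp1, the partner of E2F factors, lay at 66.2, 67.8 and 73.6 CPM against 84.1, 128 and 87.3 CPM, also without overlap (-0.53, 0.205). Cdk6, which takes HSCs out of quiescence, was at 47.9, 60.9 and 120 CPM against 78.0, 118 and 92.6 CPM, and Cdkn1c, an inhibitor that keeps them there, at 63.8, 57.1 and 39.4 CPM against 86.4, 58.6 and 75.2 CPM. Their groups overlapped.

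**Figure D3:**
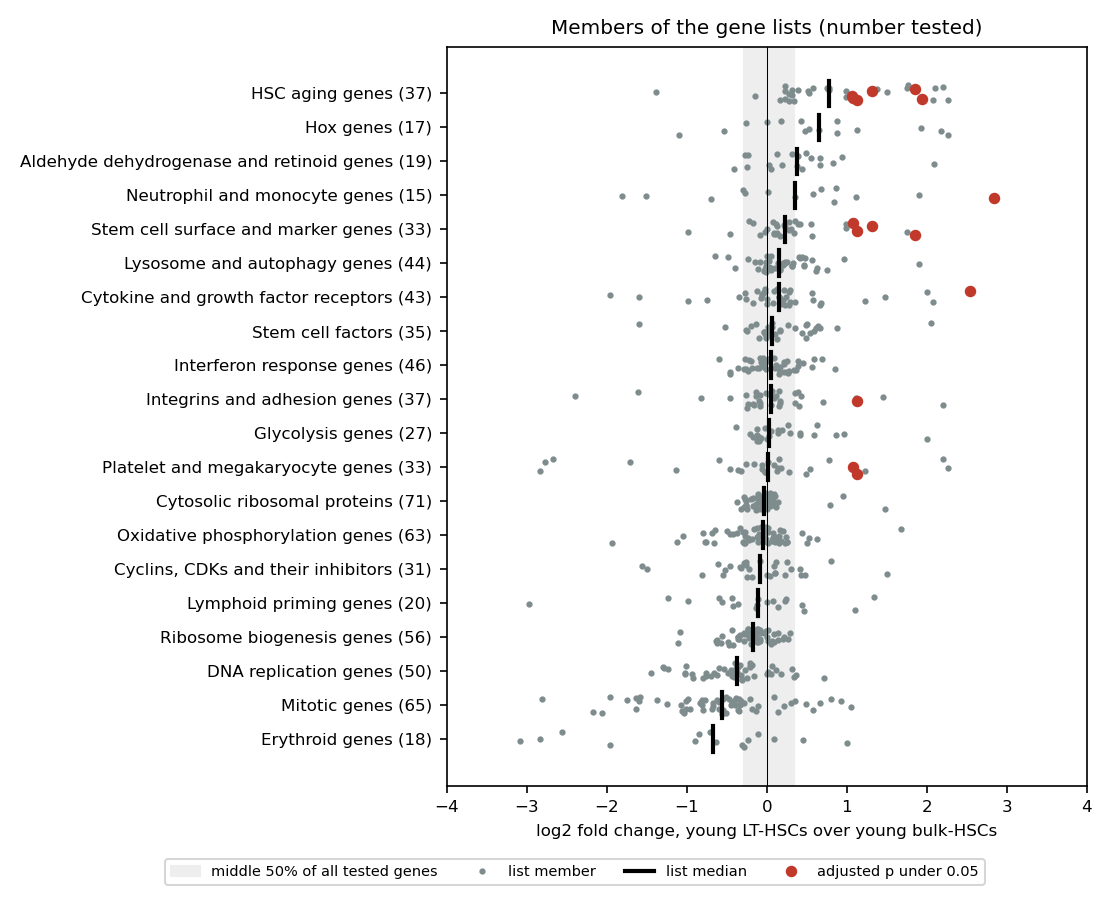
Each grey point is a tested member of a gene list, placed at its log2 difference between young LT-HSCs and young bulk-HSCs. Black lines are list medians, red points passed an adjusted p of 0.05, and the grey band spans the quartiles of all tested genes, from -0.28 to 0.34. The medians run from 0.77 for HSC aging genes to -0.67 for erythroid genes, and the band describes single genes, not medians of lists. Points beyond 4 in either direction are not drawn.

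Lineage genes differed by lineage. Of 18 tested erythroid genes, 14 were lower in LT-HSCs, with a median log2 difference of -0.67 (-1.43 without LT-HSC replicate 2 and -0.35 without bulk-HSC replicate 2). Car1 passed the adjusted test (0.0547% of all tested genes were lower and passed) and 5 lay wholly below bulk-HSCs (6.02%). Mfsd2b, the sphingosine phosphate exporter of red cells, lay at 2.34, 0.441 and 7.15 CPM against 11.4, 40.0 and 32.8 CPM (log2 difference -3.08 ± 0.90, edgeR adjusted p = 0.173). Car2, an abundant carbonic anhydrase, lay at 564, 497 and 477 CPM against 596, 722 and 556 CPM, with overlap between the groups. Gata1, the erythroid and megakaryocyte factor, was at 2.40, 0 and 1.58 CPM against 0, 14.5 and 13.97 CPM. The 10 markers of red cell precursors all belong to this list, so they give no separate evidence. Their summed level was 0 to 9.99 CPM in LT-HSCs and 44.3 to 167 CPM in bulk-HSCs, and 14.05 to 40.8 CPM in bulk-HSCs without Car1. Hba-a1, an alpha globin, had no count in any of the 6 libraries. Other globins had a low level in 1 library each. These were Hba-a2 (0.637 CPM) and Hbb-bs (0.441 CPM) in LT-HSC replicate 2, and Hbb-bt (0.499 CPM) in bulk-HSC replicate 2. The part of other cells in the erythroid values was not tested.

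Platelet and megakaryocyte genes were divided in direction, with 17 of 33 higher in LT-HSCs and a median log2 difference of 0.01. At an unadjusted p under 0.05, 8 were higher and 1 lower, beside 6.6% and 4.93% of all tested genes. Their summed level, which includes Vwf, was 4939, 4898 and 4637 CPM in LT-HSCs. In bulk-HSCs it was 3871, 3860 and 4271 CPM, with no overlap. The called members were Vwf and Itgb3, beside 0.219% of all tested genes called higher. Both are also among the calls of the surface and marker list and of the HSC aging list. Clu, a secreted chaperone stored in platelets, lay at 49.6, 50.2 and 70.5 CPM against 19.8, 11.2 and 4.62 CPM (log2 difference 2.26 ± 0.82, edgeR adjusted p = 0.283).

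Of 34 lymphoid priming genes, 20 were tested and 9 were higher in LT-HSCs, with a median log2 difference of -0.11. Sox4, a factor of early lymphoid cells, lay at 114, 105 and 133 CPM against 186, 171 and 175 CPM. The groups did not overlap, with a log2 difference of -0.60 ± 0.13 close to the threshold (edgeR adjusted p = 0.0594). Flt3, the receptor that marks multipotent and lymphoid progenitors, was at 22.3, 9.16 and 15.9 CPM against 41.7, 26.4 and 25.7 CPM (-0.99 ± 0.48, 0.449), and at a mean of 64.0 CPM in young ST-HSCs. Of 32 neutrophil and monocyte genes 17 were below the expression filter, among them Mpo. Of the 15 tested Cebpb alone passed, beside 0.219% of all tested genes called higher.

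Markers of mature and niche cells were summed in each library. Monocyte and macrophage markers summed to 0 to 19.6 CPM in LT-HSCs and 38.2 to 60.9 CPM in bulk-HSCs, with 6 of 8 tested markers lower in LT-HSCs and Ly6c2 and Ccr2 at 0 in all 6 libraries. Neutrophil markers summed to at most 4.90 CPM in a library, with S100a8, Ngp and Ltf at 0. B cell markers summed to 18.9996 to 19.8 CPM in LT-HSCs and 10.6 to 29.2 CPM in bulk-HSCs, and Pax5 and Ms4a1 were at 0. T and NK cell markers summed to 8.79 to 38.1 CPM and 13.3 to 31.2 CPM. Mast cell and basophil markers summed to 0.0979 to 2.40 CPM and 6.10 to 27.0 CPM, and stromal markers to 10.5 to 31.3 CPM and 7.19 to 28.7 CPM. Endothelial markers went the other way, with all 7 tested members of 10 higher in LT-HSCs and sums of 354 to 390 CPM against 314 to 328 CPM. Kdr, an endothelial growth factor receptor, was at 37.4, 14.7 and 22.4 CPM against 0, 6.72 and 11.7 CPM (edgeR adjusted p = 0.361). Cdh5 and Sox17, which define endothelium, had no count in any of the 6 libraries. Vwf, Selp and Tek are also made by endothelium, and the part of endothelial RNA in their values was not tested.

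Biosynthesis and metabolism showed small differences. Of 56 ribosome biogenesis genes, 43 were lower in LT-HSCs, with a median log2 difference of -0.17, 7 of them at an unadjusted p under 0.05 (4.93% of all tested genes), and 0 passed the adjusted test. Their sums were 4557, 5441 and 5245 CPM against 5426, 5955 and 6197 CPM, which overlap. Fbl, the methyltransferase of ribosomal RNA, lay at 69.7, 77.2 and 89.0 CPM against 102, 122 and 123 CPM (log2 difference -0.56 ± 0.17, edgeR adjusted p = 0.183), and Ncl, the nucleolar protein nucleolin, at 770, 897 and 929 CPM against 970, 1077 and 1126 CPM (-0.29, 0.243). Both were without overlap and did not pass the test. The 71 cytosolic ribosomal proteins had a median of -0.03 and the 63 oxidative phosphorylation genes one of -0.05, with 7 and 6 genes lower at an unadjusted p under 0.05 (4.93% of all tested genes) and 0 past the adjusted test in each. The 27 glycolysis genes had a median of 0.03, and Pfkfb3, which makes the activator of phosphofructokinase, lay at 85.6, 59.6 and 74.2 CPM against 30.3, 44.2 and 37.3 CPM (log2 difference 0.97 ± 0.22, edgeR adjusted p = 0.0769).

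Lists of signalling and other functions held a single call or none. Of 43 cytokine and growth factor receptors, 27 were higher in LT-HSCs, with a median of 0.15, and Cysltr2 passed (0.219% of all tested genes were called higher). Ptger4, a prostaglandin receptor, lay at 73.9, 48.4 and 107 CPM against 33.4, 43.0 and 21.3 CPM (log2 difference 1.23 ± 0.32, edgeR adjusted p = 0.121). The 37 tested integrins and adhesion genes had a median of 0.05 and Itgb3 as their call, beside the same 0.219%. That call is shared with the platelet, surface and aging lists. Of 19 aldehyde dehydrogenase and retinoid genes 15 were higher, with a median of 0.37, and Dhrs3 lay at 21.7, 20.2 and 39.5 CPM against 9.12, 7.31 and 2.71 CPM. Lysosome and autophagy genes (44 tested), interferon response genes (46), immediate early genes (28) and imprinted genes (27) had medians of 0.15, 0.06, 0.03 and 0.16. In these lists 5, 2, 2 and 4 genes had an unadjusted p under 0.05, beside 11.5% of all tested genes, and 0 passed the adjusted test in each.

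**Figure D4:**
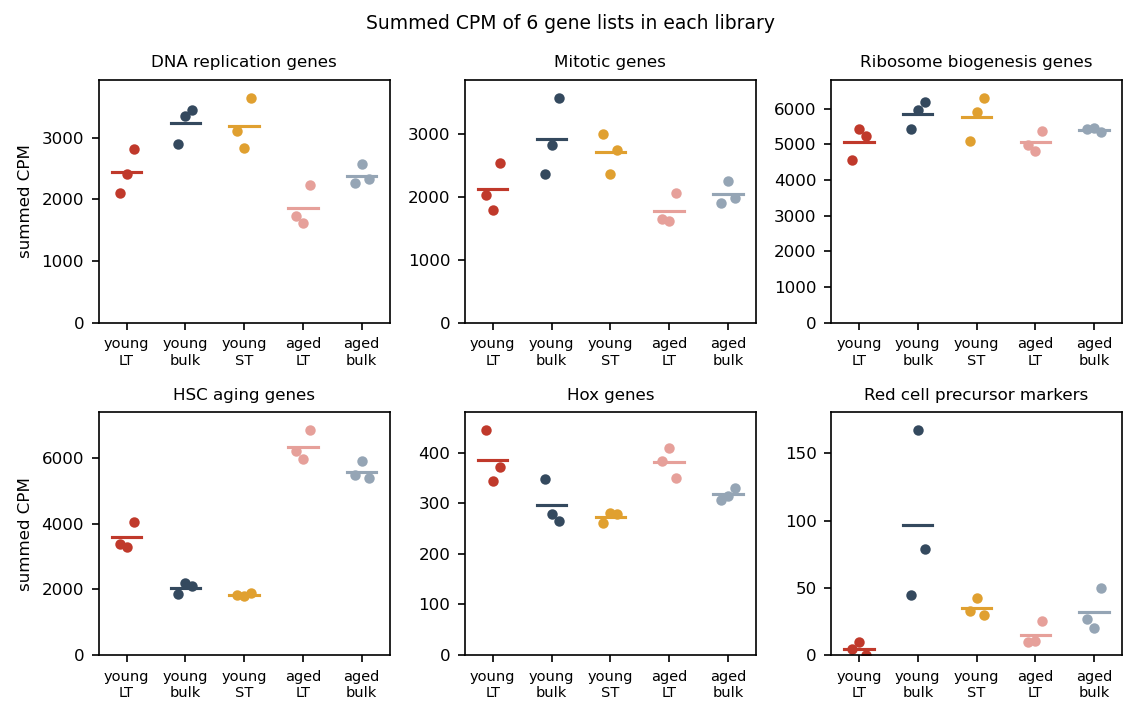
Each point is the summed CPM of a gene list in a library, with lines at group means, for young LT-HSCs, bulk-HSCs and ST-HSCs and for aged LT-HSCs and bulk-HSCs. Axes start at 0 and differ between panels. Young LT-HSCs lie below young bulk-HSCs for replication genes (highest LT-HSC library 2818, lowest bulk-HSC library 2898) and above them for HSC aging genes. Both aged groups are higher still there, for which that list was chosen.

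The same contrast in aged mice uses libraries that the young one did not. Aged LT-HSCs and aged bulk-HSCs gave 0 genes past an adjusted p of 0.05 with edgeR, with 421 genes (3.29%) at an unadjusted p under 0.05, and 32 genes with DESeq2. Of the 28 genes higher in young LT-HSCs, 20 were also higher in aged LT-HSCs, and of the 7 lower genes 6 were also lower. At an unadjusted p under 0.05, 2 of the 28 were higher there (1.69% of all tested genes) and 4 of the 7 lower (1.6%). Among all tested genes the direction was shared by 54.6% of those higher and 52.9% of those lower. The median log2 difference of the 28 was 2.08 in young mice and 0.22 in aged mice, and that of the 7 was -1.19 and -0.55. The genes were chosen on their young values, which are given here as a description.

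Itgb3 and Slc22a3 kept their direction with separate libraries. Itgb3 lay at 401, 472 and 476 CPM in aged LT-HSCs and at 309, 313 and 328 CPM in aged bulk-HSCs (log2 difference 0.51, unadjusted p = 0.00667), and Slc22a3 at 30.3, 21.5 and 15.1 CPM against 40.8, 56.9 and 38.6 CPM (-1.03, unadjusted p = 0.00129). Both genes were without overlap at both ages, where aged LT-HSCs lay wholly above aged bulk-HSCs in 7.75% of all tested genes and wholly below in 7.36%, and neither passed the adjusted test in aged mice. Mlec had about the same difference at both ages, at 212, 244 and 232 CPM against 334, 340 and 336 CPM in aged mice (-0.55, unadjusted p = 4.26e-05, adjusted p = 0.273). Pfkfb3 differed by 1.01 in aged mice (unadjusted p = 0.000266), beside 0.97 in young mice.

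Mylk, Enpp5 and Homez had aged log2 differences of -0.05, -0.01 and -0.06. For Mylk, aged LT-HSCs lay at 79.7, 108 and 90.4 CPM and aged bulk-HSCs at 96.4, 78.6 and 114 CPM, so both aged groups were at the level of young LT-HSCs. A test of the young against the aged difference for Mylk gave 1.61 on the log2 scale and an edgeR adjusted p of 0.0741. For Enpp5, aged bulk-HSCs lay at 194, 197 and 158 CPM, above the 14.6 to 42.4 CPM of young bulk-HSCs, and aged LT-HSCs at 187, 157 and 200 CPM. Ttll1 was the only gene whose difference between the ages passed the adjusted test (0.00781% of those tested). Of the 50 replication genes 45 were lower in aged LT-HSCs, with a median of -0.35, and Mcm5 lay at 40.2, 42.5 and 43.2 CPM against 50.1, 81.7 and 66.6 CPM (-0.66, unadjusted p = 0.0115). Mitotic genes had an aged median of -0.22 and Hox genes one of 0.50.

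**Figure D5:**
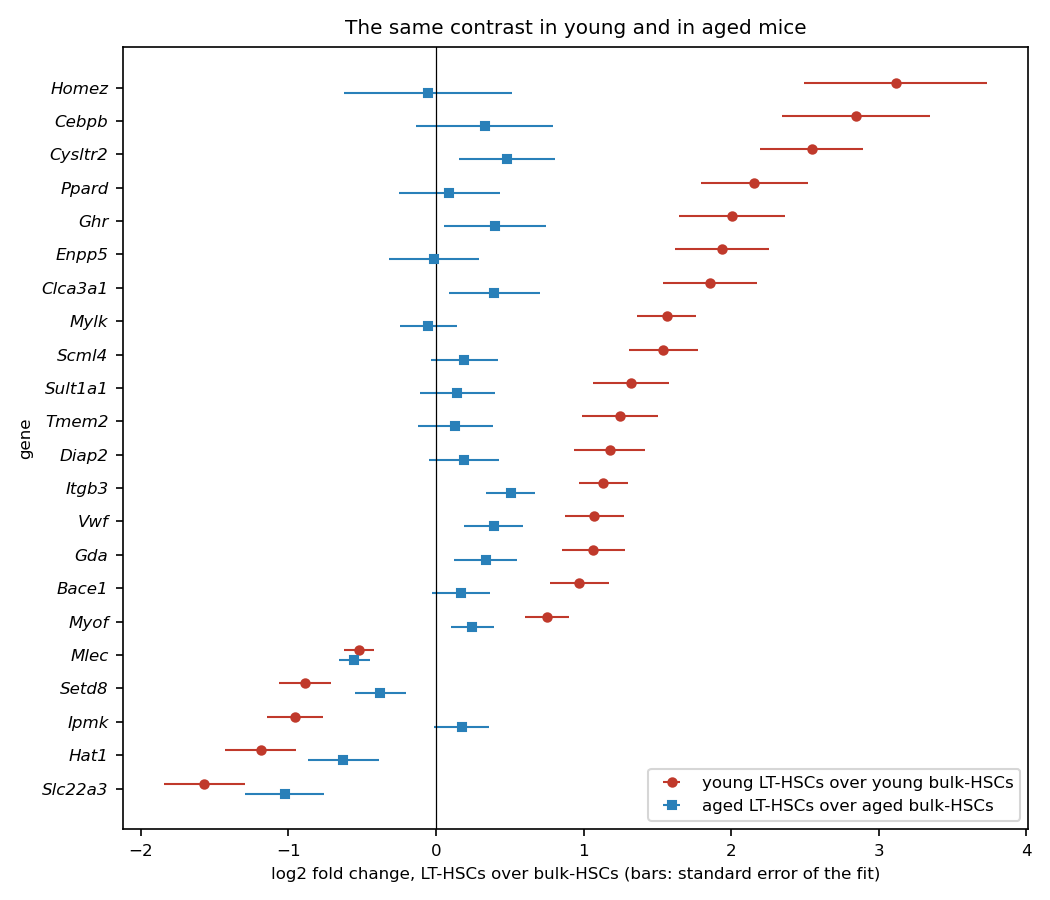
Points give the log2 difference between LT-HSCs and bulk-HSCs in young (red) and aged (blue) mice for 22 of the 23 called genes with a count in each young library, with bars of 1 standard error of the fit. In aged mice most higher genes lie near 0, with Itgb3 (0.51) the farthest above it of those drawn, while Mlec is at -0.52 and -0.55.

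Of the 35 called genes, 32 were found in GENCODE M21 under the same symbol, and 11 of these have exons that overlap another gene on the opposite strand, among them Sult1a1, Mylk, Slc22a3, Clca3a1, Tc2n, Homez, Bace1, Cebpb, 2210408F21Rik and 1700020L24Rik. Whether the counting used strand is not stated. It is therefore not known to which gene the reads from the overlapping exon stretches were counted, and the share of such reads was not measured. Mylk lies at chr16:34745210-35002420 on the plus strand, Cysltr2 at chr14:73025603-73049114 on the minus strand, Itgb3 at chr11:104608000-104670476 on the plus strand and Slc22a3 at chr17:12418960-12507704 on the minus strand, in mm10 coordinates.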

How the data were processed

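The labels and the methods of the study describe RNA of sorted HSCs, enriched for c-Kit and sorted again, prepared with a KAPA RNA HyperPrep kit with RiboErase and sequenced as read pairs. The authors aligned reads to mm10 with HISAT2, used SAMtools 1.7 and StringTie 1.3.4d, and deposited counts per gene, whole numbers without normalization, for 24421 symbols. How StringTie estimates became whole counts is not given in the sources used here.

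All 18 libraries were fitted with edgeR 4.0.16 (limma 3.58.1, R 4.3.3): TMM factors, 12808 genes with a mean of at least 1 CPM, a quasi-likelihood model of 6 group means with 12 residual degrees of freedom, contrasts of LT-HSCs against bulk-HSCs at each age and their difference, and Benjamini-Hochberg adjustment over all tested genes. Each standard error is the log2 fold change divided by the square root of F. Figures used Python 3.11.15 and matplotlib 3.10.9. The test was checked on simulated counts with the same spread in all libraries. That check does not cover the larger spread and the missing counts of the young libraries. No pair of replicates agreed within sampling noise, and no library was left out.

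The members and lists were chosen with earlier results of these data known. Named genes were the 15 largest rises and falls (adjusted p under 0.05, no overlap, a higher group mean of 10 CPM or more), called and 5 lowest-p members of each list, sorting markers and 15 fixed genes, besides those said to be named after. Alternatives were library size alone, RLE size factors, 3 other filters, smaller sets of libraries, a replicate block, DESeq2 1.42.0, limma-voom, a covariate for detected genes, and leaving out each library. The correlations of deviations of young LT-HSC and bulk-HSC libraries sharing a replicate number were 0.0147, 0.0585 and 0.0382. Those with unlike numbers ran lower, from -0.0564 to 0.00558. The labels do not state pairs, and numbers were not taken as pairs. Coordinates came from GENCODE M21, which held 96.0% of tested symbols. A promoter sequence in RefSeq was matched for 22 of the 35 called genes. A few genes that this rule names are not reported here.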

Additional observations from a re-analysis of the deposited data

Results flagged for a closer look

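Ttll1 differed between the ages in the contrast of LT-HSCs with bulk-HSCs, by 11.30 on the log2 scale (SE 1.54, edgeR adjusted p = 0.0241), the single gene of 12808 that passed the test of that difference. Its young value rests on bulk-HSC libraries at 0, so this fitted size is no estimate of a fold. Aged LT-HSCs were at 4.74, 5.55 and 6.87 CPM and aged bulk-HSCs at 3.83, 13.4 and 5.52 CPM, with a log2 difference of -0.41 ± 0.78 there.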

How the results depend on the processing

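The young count of 35 called genes became 26 with library size alone, 37 with RLE size factors, 30 and 31 with other filters and 25 with a replicate block, and no called gene changed sign under any of the 17 alternatives run. It became 19 with a count required in each of the 6 libraries (chosen after seeing the data), 0 on the groups compared alone, 1 on the 9 young libraries, 438 with DESeq2, 0 with limma-voom and 62 with detected genes as a covariate. Leaving out a library gave 33 to 117, highest without LT-HSC replicate 2 (117) and at 61 without bulk-HSC replicate 2 or 3, and 16 of the 35 genes were called in all 6 such fits. The replicate block kept 23 of the 35, but the labels do not say whether equal numbers pair these libraries. The fits on fewer libraries use a larger estimate of spread, with a coefficient of variation of 0.767 over the 9 young libraries and 0.589 over all 18. The aged count of 0 became 1 on the groups compared, 32 with DESeq2, 30 with limma-voom and 0 to 1 without a library. The count of 1 for the difference between ages became 0 on the groups compared, with the replicate block and with limma-voom, 122 with DESeq2 and 0 to 20 without a library. Hoxb5 stayed positive and short of the threshold throughout, at 1.09 to 2.63 without a library. Of 368 list medians under alternatives, 22, from 10 of the 23 lists followed, moved by over 1 SD, and the cause was not tested. Outside the calls, Hlf (0.02) turned to -0.0254 with the covariate and ran from -0.078 to 0.12 without a library.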
